A study of Arabidopsis thaliana with 36 samples.

Results

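The rootstock of the anac071,096 double mutant, the hypocotyl just below a graft junction, was compared with the uncut hypocotyl of the same genotype. The members are 6 libraries of the 36 in the series, chosen by their labels: 3 of anac071,096 rootstock and 3 of anac071,096 intact hypocotyl. For comparison the text also uses 3 libraries of anac071,096 scion (the hypocotyl above the junction), 3 of Col-0 rootstock and 3 of Col-0 intact hypocotyl, Col-0 being the wild type. All were Arabidopsis thaliana seedlings 7 days old, and grafted tissue was taken after 24 h. The rootstock pieces ran 0.5 mm below the junction, and the intact pieces were 1 mm of hypocotyl, so that the positions sampled differ as well as the cut. Intact and grafted seedlings had both lost 1 cotyledon, and a graft joined the cut top of one plant to the cut base of another. The labels name the mutant only by its genes and give neither the alleles nor the lesions, nor the genotype of the partner in a graft. The design text calls the 3 libraries of a group biological replicates, and the number of seedlings pooled in a library is not given in the sources used here.

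ANAC071 and ANAC096 are transcription factors of the NAC family, plant proteins named for a shared DNA-binding domain. ANAC071 is known from cut Arabidopsis stems and hypocotyls, where it is induced at the wound and takes part in the rejoining of tissue. Vascular tissue consists of xylem, which carries water, phloem, which carries sugar in living sieve elements, and the cambium, the dividing layer between them. A graft has to seal the wound, form new cells and rebuild xylem and phloem across the cut. The DOF transcription factors HCA2 and TMO6 are expressed in the vascular strand and are known from procambium and phloem development.

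The sequences printed first are promoters, the 250 bases before the annotated gene start in the TAIR10.1 reference genome of RefSeq, 5′ to 3′ on the strand of the gene. HCA2 and TMO6 are shown because grafting raised them less in the mutant than in Col-0, as described below, and both are DOF genes. They lie on chromosome 5, HCA2 at chr5:25258705-25258954 on the minus strand and TMO6 at chr5:24240560-24240809 on the plus strand. The letters CATGTG, part of a recognition sequence of NAC factors, were searched for on both strands and were not in either window, so no letter stands in capitals.
HCA2: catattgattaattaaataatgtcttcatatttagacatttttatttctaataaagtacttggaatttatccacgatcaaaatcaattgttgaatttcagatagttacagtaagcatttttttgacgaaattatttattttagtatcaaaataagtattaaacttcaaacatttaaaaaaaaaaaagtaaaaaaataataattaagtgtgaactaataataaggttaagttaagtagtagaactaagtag
TMO6: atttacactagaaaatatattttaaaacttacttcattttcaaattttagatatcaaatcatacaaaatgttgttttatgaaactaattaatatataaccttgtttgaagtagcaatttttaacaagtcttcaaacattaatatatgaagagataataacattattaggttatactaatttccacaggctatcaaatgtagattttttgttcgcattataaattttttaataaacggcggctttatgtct
The letters CATGTG occur in 11.1% of the 27443 protein-coding promoters of this length and in 4 of the 39 genes whose response was lower than in Col-0.

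The next sequences belong to genes of the cell cycle that rose in the rootstock and hold the letters searched for. TTTCCCGC and TTTGGCGC are sites of E2F factors, which switch on genes of DNA synthesis, and capitals mark them on either strand in genes of the MCM helicase, which unwinds DNA. MCM6 (chr5:18010668-18010917, minus strand), MCM2 (chr1:16969964-16970213, plus strand) and MCM4 (chr2:7130730-7130979, minus strand) had the smallest adjusted p of the matching genes.
MCM6: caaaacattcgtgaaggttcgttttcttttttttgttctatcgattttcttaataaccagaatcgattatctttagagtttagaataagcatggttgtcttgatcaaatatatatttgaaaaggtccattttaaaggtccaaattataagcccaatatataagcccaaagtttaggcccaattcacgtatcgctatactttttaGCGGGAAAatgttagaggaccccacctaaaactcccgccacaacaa
MCM2: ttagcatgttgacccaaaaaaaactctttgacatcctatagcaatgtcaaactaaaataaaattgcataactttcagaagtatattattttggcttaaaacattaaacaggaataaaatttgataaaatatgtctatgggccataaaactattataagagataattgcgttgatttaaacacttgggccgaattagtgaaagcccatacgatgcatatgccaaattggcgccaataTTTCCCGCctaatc
MCM4: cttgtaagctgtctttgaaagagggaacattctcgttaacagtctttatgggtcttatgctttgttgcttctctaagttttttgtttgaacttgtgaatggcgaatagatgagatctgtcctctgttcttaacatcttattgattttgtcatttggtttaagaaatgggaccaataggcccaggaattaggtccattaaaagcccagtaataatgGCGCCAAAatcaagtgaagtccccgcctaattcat
These letters occur in 8 of 16 promoters of the DNA replication list and in 0.958% of all protein-coding promoters. CCAACGG and CTAACGG are forms of the mitosis-specific activator core bound by MYB3R factors, and capitals mark them in promoters of B-type cyclins, which drive entry into mitosis. They are CYCB2;2 (chr4:16901346-16901595, plus strand), CYCB1;3 (chr3:3627274-3627523, minus strand) and CYCB1;2 (chr5:1861704-1861953, minus strand).
CYCB2;2: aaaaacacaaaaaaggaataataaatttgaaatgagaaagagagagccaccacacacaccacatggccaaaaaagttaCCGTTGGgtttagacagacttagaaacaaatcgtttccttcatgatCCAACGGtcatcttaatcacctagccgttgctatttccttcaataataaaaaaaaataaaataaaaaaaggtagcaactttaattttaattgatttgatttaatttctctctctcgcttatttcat
CYCB1;3: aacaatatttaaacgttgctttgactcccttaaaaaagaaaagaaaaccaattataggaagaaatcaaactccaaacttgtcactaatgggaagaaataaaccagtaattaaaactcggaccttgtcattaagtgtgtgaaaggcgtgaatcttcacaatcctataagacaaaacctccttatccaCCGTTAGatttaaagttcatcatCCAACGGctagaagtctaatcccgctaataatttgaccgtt
CYCB1;2: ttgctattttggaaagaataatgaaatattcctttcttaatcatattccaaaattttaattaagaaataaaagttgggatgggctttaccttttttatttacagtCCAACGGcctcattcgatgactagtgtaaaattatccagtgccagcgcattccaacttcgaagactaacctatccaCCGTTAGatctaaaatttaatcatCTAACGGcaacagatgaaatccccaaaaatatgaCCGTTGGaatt
The core letters occur in 8 of 24 promoters of the mitosis list and in 2.58% of all protein-coding promoters. The E2F and activator-core letters do not share a stretch that would count a match under both, and a match is a description of the letters, not of binding.

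The 6 libraries held 19.5 to 27.6 M counts (M for mega), against 19.5 to 30.5 M over all 36. In a principal component analysis of the 6, the first component held 76.6% of the variance and separated every rootstock from every intact library. Organelle loci took 0.742% to 2.49% of a library. Col-0 rootstock replicate 1 stood apart, with 2514 loci counted in no other library, against 9 to 22 such loci in the 6 libraries described here. The comparisons that use Col-0 were therefore also made without it.

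The targeted genes were measured first. ANAC071 (AT4G17980, chromosome 4) had 1.97, 1.45 and 3.00 CPM (counts per mega-count of a library, with library sizes scaled by TMM factors) in the anac071,096 rootstock libraries and 0 counts in the 3 intact libraries. Set against a floor of 3 counts over the intact group, it was at least 46.8-fold higher in rootstock. ANAC096 (AT5G46590, chromosome 5) had 6.96, 5.87 and 5.43 CPM in rootstock, against 0.0734, 0.246 and 0.0558 in intact tissue, a log2 change of 5.58 ± 0.46 (fitted value ± SE, as for every log2 value that follows; Benjamini-Hochberg adjusted p 3.8e-11 in edgeR's quasi-likelihood test). No library of one tissue overlapped those of the other for either gene.

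Both transcripts were lower in the mutant than in the wild-type rootstock. Mutant rootstocks averaged 2.14 and 6.09 CPM, whereas Col-0 rootstock had 9.45, 12.5 and 17.2 CPM of ANAC071 and 48.9, 52.3 and 53.6 CPM of ANAC096, and mutant over Col-0 rootstock gave log2 differences of -2.60 ± 0.36 (adjusted p 0.0001) and -3.08 ± 0.30 (adjusted p 1e-07). The grafting response itself, rootstock against intact, did not differ past the threshold between the genotypes for ANAC096 (difference -0.72 ± 0.77, adjusted p 1). For ANAC071 both intact groups were at 0, so no difference of responses can be given. A count table includes reads from transcript parts that a lesion leaves in place, and these levels say nothing of functional protein.

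**Figure D1:**
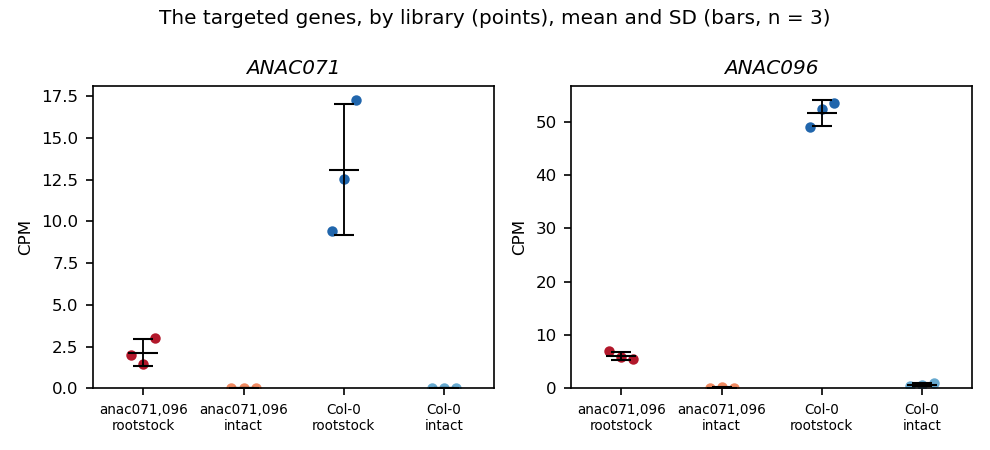
CPM (linear axis) of ANAC071 and ANAC096 in each library of anac071,096 rootstock, anac071,096 intact, Col-0 rootstock and Col-0 intact, with the group mean and SD (n = 3). Both genes are near 0 in intact tissue, and mutant rootstocks reach 2.14 and 6.09 CPM on average, against 13.1 and 51.6 CPM in Col-0 rootstocks.

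Across the genome, grafting moved a large share of the transcripts of the mutant. Of 19476 loci tested with edgeR's quasi-likelihood test, 7425 passed an adjusted p of 0.05 (38.1%): 4227 were higher in rootstock (21.7%) and 3198 lower (16.4%). With a change of at least 2-fold as well, 2671 were higher (13.7%) and 2058 lower (10.6%). The 3 rootstock libraries did not overlap the 3 intact libraries for 8559 loci (43.9%). The median log2 change of all loci was 0.05. The shares of 21.7% and 16.4% and this median are the background for the gene lists that follow, in which rose and fell mean an adjusted p under 0.05. Higher loci made up 56.9% of the calls, and 45.4% with upper-quartile scaling, under which the median locus lay at -0.10.

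The same comparison in Col-0 called 7730 loci (39.7%), with 4410 higher (22.6%) and 3320 lower (17%). Called in both genotypes were 6224 loci, which are 83.8% of the calls in anac071,096 and 80.5% of those in Col-0. Of these, 99.6% changed in the same direction. Without Col-0 rootstock replicate 1, Col-0 gave 6606 calls, 3917 higher and 2689 lower, of which 5706 were calls in anac071,096. In the gene lists below, that changed a Col-0 count by at most 2 genes: 14 xylem genes fell in place of 16, 4 wound ERF genes rose in place of 5 and 4 cambium genes fell in place of 3, while the phloem list again had 9 higher and 2 lower. Across the 19476 loci the log2 changes of both genotypes had a Pearson correlation of 0.878, given as a description, since loci are not independent replicates.

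**Figure D2:**
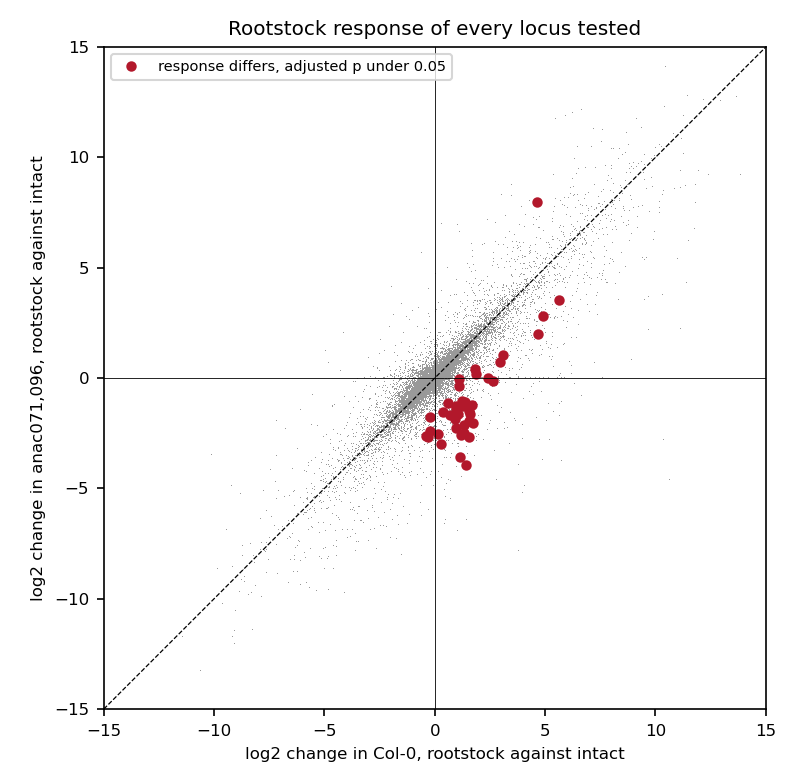
Log2 change of rootstock against intact hypocotyl in anac071,096 (vertical) and Col-0 (horizontal) for the 19476 loci tested (grey points); the dashed line marks equal changes. The 40 red loci are those whose response differed with an adjusted p under 0.05, and 39 of them lie under the line.

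The response itself differed from that of Col-0 for 40 loci (0.205%), 39 lower in anac071,096 (0.2%) and 1 higher (0.00513%), while 707 had an unadjusted p under 0.05. Of the 39, 29 rose in the Col-0 rootstock, against 22.6% of all loci. In anac071,096, 28 of the 39 fell, against 16.4% of all loci, 6 rose by less than in Col-0 and 5 did not pass the test. The 39 were selected by the difference of these same changes, so the counts describe them and test nothing. In simulated counts, every gene had the same dispersion, a measure of the spread between libraries, whereas real genes differ in it. Genes that were not low in counts were changed in the mutant rootstock alone. The shares called hold for that setting only. The response difference was called for 5% of changes of log2 1 and 75% of log2 2. Rootstock against intact tissue was called for 32% and 99% of them. A response difference that did not pass is therefore no sign of an equal response. The 1 locus with a higher response, AT1G49450, carries no symbol and was named after its values were seen. It kept that call in 7 of 18 alternative settings. It had 7.73, 8.13 and 11.4 CPM in mutant rootstock and 0.0367, 0.0492 and 0 in mutant intact tissue, against 7.80, 8.71 and 4.31 and 0.276, 0.315 and 0.229 CPM in Col-0 rootstock and intact tissue.

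HCA2 (AT5G62940) rose in Col-0 and gave no call in the mutant. It had 7.19, 9.03 and 7.86 CPM in anac071,096 rootstock, against 6.90, 10.8 and 6.36 in anac071,096 intact tissue. In Col-0 it had 36.3, 35.4 and 46.8 CPM in rootstock, against 6.57, 7.31 and 8.44 in intact tissue. The 3 mutant rootstocks lay within the range of their intact libraries, while every Col-0 rootstock lay above every other library of the 4 groups. The log2 change was 0.00 ± 0.20 in the mutant (adjusted p 1) and 2.41 ± 0.20 in Col-0 (adjusted p 5.1e-11), and the difference of the responses was -2.41 ± 0.28 (adjusted p 3e-05).

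TMO6 (AT5G60200) rose in both genotypes, but by less in the mutant. Mutant rootstocks had 42.9, 51.8 and 45.4 CPM and mutant intact libraries 21.4, 33.2 and 29.7, whereas Col-0 rootstocks had 196, 177 and 256 CPM and Col-0 intact libraries 26.4, 24.8 and 30.7. The difference of the responses was -2.21 ± 0.27 (adjusted p 3e-05). Another DOF gene of the vascular strand, DOF2.1 (AT2G28510), rose in the mutant with 152, 202 and 222 CPM in rootstock against 18.0, 16.2 and 14.1 in intact tissue (log2 change 3.58 ± 0.27, adjusted p 6.7e-12). Col-0 rootstocks held 405, 387 and 442 CPM of it, and the difference of -1.25 ± 0.35 did not pass (adjusted p 0.24). Of the 7 tested genes of the list of NAC relatives and vascular DOF factors, TMO6, DOF2.1 and the ANAC071 relative ANAC011 rose, the last with 0.164 CPM in rootstock on average against 0 counts in intact tissue, and 1 gene fell. PEAR1 and DOF6, close relatives of PEAR2, gave no call, with 2.1 ± 0.590 and 0.954 ± 0.484 CPM in rootstock against 3.32 ± 0.279 and 1.25 ± 0.223 in intact tissue (SD, n = 3). The call of ANAC011 was lost without rootstock replicate 2 or without any 1 of the 3 intact replicates. The median change of the list was 0.00, with values on either side of 0 under the alternatives, the lowest being -0.15 with upper-quartile scaling and the highest 0.27 without intact replicate 2. The gene that fell, PEAR2, a DOF factor of early phloem, had 3.34 ± 0.860 CPM in rootstock against 5.2 ± 0.932 in intact tissue (SD, n = 3; log2 change -0.64 ± 0.21, adjusted p 0.015). That call was lost without rootstock replicate 1 (adjusted p 0.083), rootstock replicate 2 (0.079) or intact replicate 2 (0.092), and in a fit of only the groups compared (0.12).

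SMXL5 and BAM3 act in early phloem. SMXL5 (AT5G57130), a nuclear protein needed to form phloem, had 48.6, 49.4 and 53.9 CPM in mutant rootstock against 43.8, 39.8 and 32.2 in mutant intact tissue, and 149, 149 and 169 against 50.6, 40.4 and 40.7 CPM in Col-0. The difference was -1.43 ± 0.19 (adjusted p 8.7e-05). BAM3 (AT4G20270), a receptor kinase of developing sieve elements, moved in opposite directions. It fell in the mutant, with 28.1, 40.9 and 39.8 CPM in rootstock against 81.9, 84.8 and 73.4 in intact tissue (log2 change -1.14 ± 0.16, adjusted p 9e-07). It rose in Col-0, with 107, 104 and 133 CPM against 75.1, 77.3 and 73.2 (log2 change 0.61 ± 0.16, adjusted p 0.0025), and the difference was -1.75 ± 0.22 (adjusted p 4.5e-05).

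SUS6 and SEOB, known from sieve elements, each had a lower response than in Col-0. SUS6 (AT1G73370), a sucrose synthase of sieve elements, had 0.183, 1.3 and 1.43 CPM in mutant rootstock against 5.17, 7.93 and 3.18 in mutant intact tissue, and 10.1, 21.8 and 18.5 against 8.41, 8.01 and 3.44 CPM in Col-0. Its response differed by -3.83 ± 0.70 (adjusted p 0.0099). SEOB (AT3G01680), a structural protein that forms filaments in sieve elements, had 12, 18.1 and 12.3 CPM in mutant rootstock against 43.7, 39.6 and 39.1 in mutant intact tissue, every rootstock lying below every intact library. In Col-0 it had 49.2, 46.1 and 59.4 CPM in rootstock against 37.0, 41.5 and 41.1, a change that did not pass (adjusted p 0.32), and the responses differed by -1.90 ± 0.41 (adjusted p 0.038).

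The other genes named by rule had a lower response in the mutant too. RTM2, a small heat-shock-like protein of sieve elements that restricts virus movement, differed by -2.45 ± 0.52, with 5.48 ± 3.58 CPM in mutant rootstock against 11.6 ± 5.78 in mutant intact tissue and 37.9 ± 8.01 against 14.7 ± 4.84 CPM in Col-0 (SD, n = 3). ENODL9, an early nodulin-like protein, differed by -2.24 ± 0.48, with 7.91 ± 3.71 against 19.1 ± 2.38 CPM in the mutant and 44.1 ± 8.23 against 22.6 ± 5.94 CPM in Col-0. NAT7, of the nucleobase-ascorbate transporter family, rose in both, with 18.3 ± 5.35 against 1.58 ± 0.198 CPM in the mutant and 50.5 ± 20.4 against 1.03 ± 0.0702 CPM in Col-0, a difference of -2.08 ± 0.43. PG1 differed by -1.46 ± 0.31, with 3.64 ± 0.225 against 4.70 ± 0.789 CPM in the mutant and 10.8 ± 1.83 against 5.05 ± 0.468 CPM in Col-0. The adjusted p of these differences were 0.035, 0.038, 0.028 and 0.035, in the order given.

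HCA2, TMO6, BAM3 and SMXL5 kept an adjusted p under 0.05 in all 18 alternative settings, and SUS6 in 17, its adjusted p being 0.2 in a fit of only the groups compared. RTM2, ENODL9, NAT7, PG1 and SEOB kept it in 10, 8, 9, 6 and 6 of them, with the sign unchanged in all 18. Leaving out anac071,096 rootstock replicate 1, rootstock replicate 3, intact replicate 2, Col-0 intact replicate 2 or Col-0 intact replicate 3 ended the call of each of these 5 genes, at adjusted p of 0.082 to 0.2. Without Col-0 rootstock replicate 1, the library with many private loci, 39 loci differed, 37 of them lower in the mutant, and 34 of them were among the 40. The differences of HCA2, TMO6, BAM3, SMXL5 and SUS6 were then -2.46, -2.26, -1.80, -1.47 and -4.09, all with an adjusted p under 0.05, while SEOB (adjusted p 0.058) and PG1 (0.076) no longer passed. The count of 39 lower loci became 16 without anac071,096 rootstock replicate 1, 20 without rootstock replicate 3, 21 without intact replicate 2, 23 without Col-0 rootstock replicate 3, and 19 without Col-0 intact replicate 2 or 3.

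**Figure D3:**
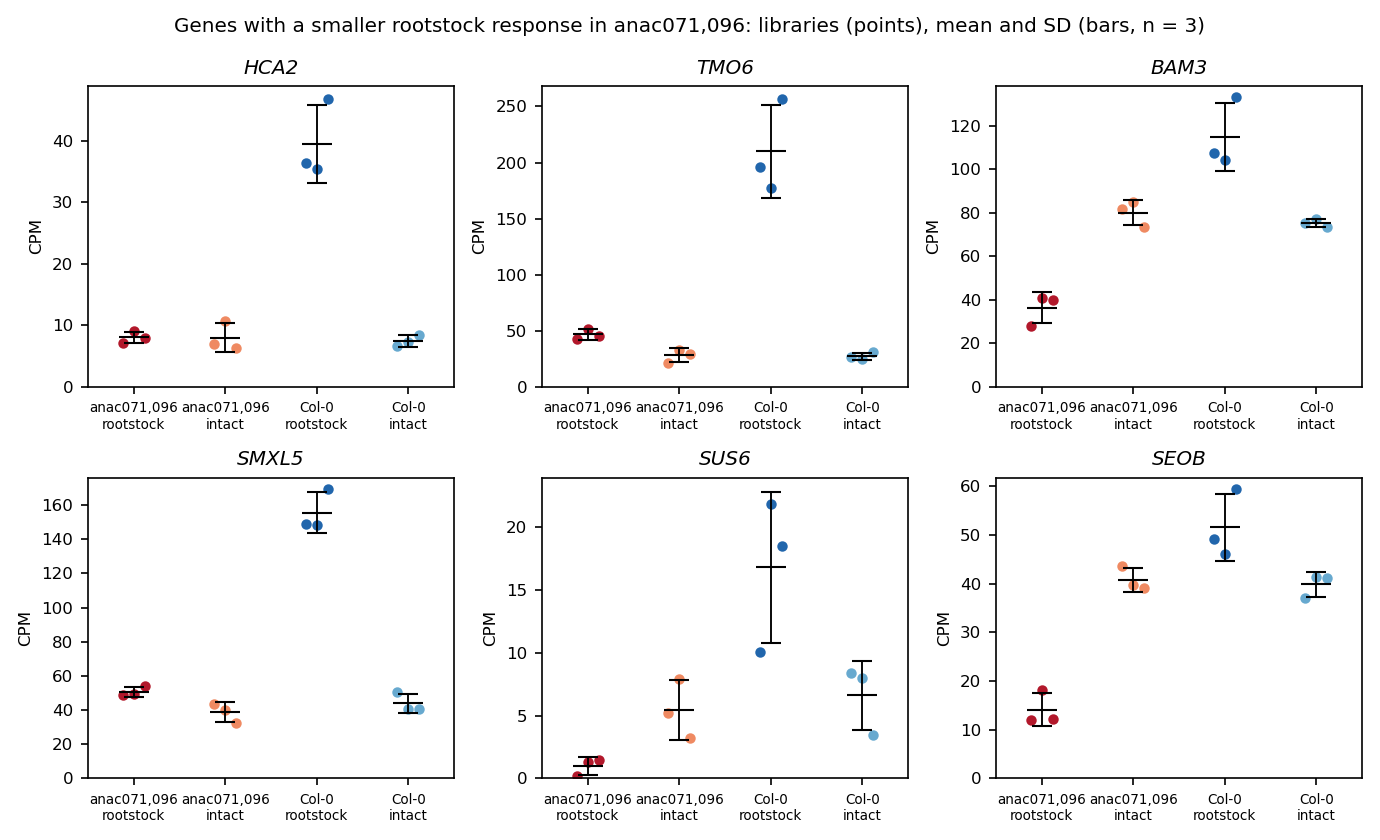
CPM (linear axes from 0) of HCA2, TMO6, BAM3, SMXL5, SUS6 and SEOB in each library of anac071,096 rootstock, anac071,096 intact, Col-0 rootstock and Col-0 intact, with group mean and SD (n = 3). In each panel the Col-0 rootstocks are the highest group, whereas mutant rootstocks lie near their intact libraries (HCA2), slightly above them (TMO6, SMXL5) or below them (BAM3, SUS6, SEOB).

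Of the phloem list, 4 of 19 tested members rose and 7 fell in the mutant, with a median log2 change of -0.69, against 9 and 2 and a median of 0.61 in Col-0. The mutant median was -0.17 without intact replicate 2 and -1.07 without intact replicate 3. The response differed past the threshold for 3 members, BAM3, SEOB and CALS7, the callose synthase of sieve plates. CALS7 had 0.831 ± 0.274 CPM in mutant rootstock against 2.58 ± 0.328 in intact tissue (SD, n = 3) and differed from Col-0 by -2.68 ± 0.53 (adjusted p 0.019). BAM3 kept that call in all 18 alternative settings, CALS7 in 13 and SEOB in 6. The sieve-element NAC factors NAC045 and NAC086, which direct the loss of the nucleus, rose in Col-0 and gave no call in the mutant, where they had 0.355 and 0.349 CPM in mutant rootstock against 0.868 and 0.559 in intact tissue. Their responses did not differ from Col-0 past the threshold (adjusted p 0.19 and 1).

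Other phloem genes responded in the mutant. OPS, a membrane protein that promotes sieve-element fate, rose to 99.8, 90.6 and 116 CPM in rootstock, against 16.5, 17.6 and 15 in intact tissue (log2 change 2.64 ± 0.15, adjusted p 2.2e-14). CLE44 and CLE41, precursors of the peptide that keeps cambium cells dividing, rose by 2.73 ± 0.39 and 1.22 ± 0.32 (adjusted p 1.5e-06 and 0.0025). SWEET11, a sucrose exporter, rose by 1.73 ± 0.27 (adjusted p 6e-06). SUC2, the sucrose loader of companion cells, fell to 76.7, 79.6 and 57.2 CPM in rootstock, against 178, 188 and 183 in intact tissue, and it fell in Col-0 as well (log2 change -1.36 ± 0.22 in the mutant and -1.49 ± 0.22 in Col-0). In bulk tissue fewer cells of a type and less RNA per cell cannot be told apart, here or in the lists that follow.

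Cambium genes were mixed, with 4 of 17 tested higher and 6 lower in the mutant, a median of -0.18. In Col-0, 6 were higher and 3 lower, a median of 0.35. The higher share in the mutant was near the 21.7% over all loci, and 4 genes were lower without rootstock replicate 3. The mutant median was -0.08 without rootstock replicate 2, -0.31 without rootstock replicate 3 and -0.11 without intact replicate 1. LBD11, a regulator of cambium activity, rose to 119, 149 and 145 CPM in rootstock, against 0.0734, 0 and 0.335 in intact tissue (log2 change 10.06 ± 0.66, adjusted p 4.2e-13). WOX4, a homeobox factor that maintains the cambium, rose to 17.8, 16.0 and 18.8 CPM, against 5.72, 4.48 and 3.79 in intact tissue (log2 change 1.90 ± 0.19, adjusted p 2.4e-09). The receptor kinase gene ER fell to 5.49, 7.32 and 6.86 CPM, against 66.4, 69.4 and 67.7 in intact tissue (log2 change -3.37 ± 0.21, adjusted p 2.2e-13). SMXL4, a relative of SMXL5, and LBD4, of the boundary between procambium and phloem, fell in the mutant, with log2 changes of -1.57 ± 0.34 and -1.04 ± 0.38, while Col-0 gave 0.13 ± 0.32 and 0.93 ± 0.36, and their response differences did not pass (adjusted p 0.21 and 0.2). In Col-0 the log2 changes of LBD11, WOX4 and ER were 9.92 ± 0.64, 1.94 ± 0.19 and -3.09 ± 0.21. SMXL5, described above, was the 1 member of the cambium list whose response differed from Col-0 past the threshold.

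Genes of xylem and its secondary wall fell for 11 of 22 tested and rose for 2 in the mutant (median -1.37), against 16 and 2 in Col-0 (median -1.71), with no response difference past the threshold. The number that fell in the mutant was 8 without rootstock replicate 1 or 2 and 9 without intact replicate 1. XCP2, a protease of dying xylem vessels, fell to 8.83, 12.8 and 13.3 CPM, against 73.8, 66.2 and 68.5 in intact tissue (log2 change -2.57 ± 0.34, adjusted p 3.6e-07). XND1, an inhibitor of xylem differentiation, had 0.585 ± 0.230 CPM against 3.09 ± 0.395 (SD, n = 3; log2 change -2.38 ± 0.36). The vessel regulator VND7 had 0.396 ± 0.0934 against 0.279 ± 0.0772 CPM and gave no call (adjusted p 0.65). FRA8, a glucuronoxylan synthesis gene, went the other way, with 90.0, 65.6 and 55.8 CPM in rootstock against 0.954, 0.738 and 2.12 (log2 change 5.82 ± 0.44, adjusted p 8e-12). MYB63, an activator of lignin genes, rose as well (3.99 ± 0.71, adjusted p 3.1e-05).

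Genes of monolignol synthesis, the supply of lignin units, rose for 5 of 14 and fell for none in the mutant (median 0.61), against 5 and 1 in Col-0. The number that rose in the mutant was 9 without intact replicate 2 or with the replicate block. With upper-quartile scaling or DESeq2, or without rootstock replicate 1 or intact replicate 1, 1 gene fell. The median was 0.39 without intact replicate 1. CAD5, the last step of the pathway, had 516, 633 and 595 CPM in rootstock against 32.2, 48.1 and 51.9 in intact tissue (log2 change 3.72 ± 0.23, adjusted p 1.8e-13). CCR2 and C4H, a later and an early enzyme, rose by 4.41 ± 0.36 and 1.71 ± 0.29 (adjusted p 3.1e-11 and 2.1e-05).

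Of the wound regulators of the ERF family, 4 of 7 tested rose in the mutant and none fell, against 5 and 0 in Col-0. ERF115, known for replacing dead stem cells, had 13.3, 13.2 and 12.3 CPM in rootstock against 0.147, 0.197 and 0.0558 in intact tissue (log2 change 6.51 ± 0.45, adjusted p 3.5e-12). Its relative ERF114 had 42.1, 63.4 and 62.0 CPM, against 3 counts in all in the intact group, a CPM ratio of 1212 with a 95% counting interval of 414 to 5881. RAP2.6L, known from rejoining of cut stems, had 99.7, 84.7 and 109.7 CPM against 9.28, 4.33 and 5.58 (log2 change 3.93 ± 0.25, adjusted p 2.9e-13). ERF115 stood at 28.6 ± 1.28 CPM in Col-0 rootstock (SD, n = 3), and its response difference of -2.37 ± 0.94 did not pass (adjusted p 1).

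Regeneration regulators rose for 11 of 18 tested, with none falling, and 11 also rose in Col-0. The number that rose in the mutant was 8 of 19 tested without intact replicate 1. It was 9 of 19 without rootstock replicate 3 or without intact replicate 3. PLT3, an AP2 factor that gives shoots and roots the competence to regenerate, had 10.4, 7.52 and 10.7 CPM in rootstock against 0.330, 0.837 and 0.279 in intact tissue (log2 change 4.31 ± 0.45, adjusted p 4.5e-09). LBD16, an auxin-induced factor of callus and lateral roots, had 14.6, 11.8 and 8.87 CPM against 0.881, 0.984 and 0.112 (log2 change 4.1 ± 0.46, adjusted p 1.6e-08). PSK5, a precursor of the growth peptide phytosulfokine, had 57.8, 158 and 90.5 CPM against 6.35, 11.1 and 16.5 (log2 change 3.18 ± 0.40, adjusted p 1.5e-07). The callus regulators WIND1, WIND2 and WIND3 rose by 1.88 ± 0.39, 1.85 ± 0.25 and 2.79 ± 0.63. WIND4 had 0.209 ± 0.104 CPM in mutant rootstock and 0.128 ± 0.181 in intact tissue, against 2.90, 1.33 and 3.02 CPM in Col-0 rootstock and 0 counts in Col-0 intact tissue. Its response difference did not pass (adjusted p 0.2).

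XTH enzymes, which cut and rejoin the xyloglucan of the cell wall, rose for 11 of 16 tested and fell for 2, the same counts as in Col-0. XTH19 and XTH20 are known from Arabidopsis as targets of ANAC071. XTH19 had 90.5, 243 and 184 CPM in mutant rootstock against 1.58, 0 and 1.17 in intact tissue (log2 change 7.50 ± 0.68, adjusted p 2.7e-10). XTH20 had 17.1, 29.3 and 22.4 CPM against 3.12, 0.738 and 3.63 (log2 change 3.19 ± 0.56, adjusted p 2.7e-05). Rootstock libraries lay above intact libraries for both, and the response differences to Col-0, -2.19 ± 1.05 and -1.61 ± 0.78, did not pass (adjusted p 1 each). Both levels may hold reads of close paralogs. XTH24 had 3437, 2762 and 1205 CPM against 28.8, 7.63 and 13.1, and XTH27 218, 206 and 188 against 54.6, 42.9 and 55.5, with log2 changes of 7.22 ± 0.57 and 2.00 ± 0.12. XTH18 had 22.1, 28.6 and 25.2 CPM, against 2 counts in all in intact tissue, a CPM ratio of 824 with a counting interval of 228 to 6813. XTH4 and XTH31 fell, with log2 changes of -1.77 ± 0.34 and -1.92 ± 0.40.

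Expansins, which loosen the wall without cutting it, moved both ways, with 6 of 18 tested higher and 8 lower. EXPA4 had 1090.2, 1649 and 1454 CPM in rootstock against 28.3, 55.4 and 46.5 in intact tissue (log2 change 5.01 ± 0.30, adjusted p 6.5e-14). EXPA5 and EXPA3 fell, with log2 changes of -5.53 ± 0.40 and -3.63 ± 0.30 and with EXPA3 at 25.2, 50.2 and 65.8 CPM against 528, 521 and 700. Genes of cellulose and pectin rose for 3 of 15, near the 21.7% over all loci, and fell for 6, or 4 without rootstock replicate 3. CESA6, a cellulose synthase of the primary wall, fell to 281 ± 12.4 CPM, against 528 ± 67.3 in intact tissue (SD, n = 3; log2 change -0.91 ± 0.13, adjusted p 1.3e-06), and the pectin-degrading PGX3 fell as well (log2 change -4.69 ± 0.79, adjusted p 1.7e-05).

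GH9B3, a cellulase of the GH9 family, headed the genes named for the size of their rise. It had 92.6, 109 and 67.7 CPM in rootstock and 0 counts in intact tissue, at least 1959-fold higher, and 139 ± 11.0 CPM in Col-0 rootstock (SD, n = 3). KOR2, another GH9 enzyme, had 13.1, 12 and 8.91 CPM against 0 counts, at least 247-fold higher. Also at 0 counts in intact tissue were GulLO2, an enzyme of the gulonolactone oxidase family, the glutathione transferase GSTU11, the receptor-like kinase CRK13, the glycine-rich protein GRP9, the kinase FRK1 and the transcription factor WRKY8. Their rootstock means were 31.9, 30.8, 23.2, 19.2, 12.2 and 10.9 CPM, or at least 696, 672, 507, 420.2, 267 and 238 times the floor of the intact group. The peroxidase PRX52 had 147, 93.3 and 69.7 CPM against 1 count in intact tissue (CPM ratio 6813, 95% counting interval 1222 to 269131). CHX17, a cation exchanger, had 151, 76.1 and 47.5 CPM against 2 counts (ratio 3027, interval 837 to 24997). For GulLO2, GSTU11, GRP9 and WRKY8 both intact groups were at 0 counts, so no difference of responses can be given. The others named here had no response difference to Col-0 past the threshold.

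Genes of DNA replication and mitosis rose together. Of the replication list, 14 of 16 rose and none fell, with a median log2 change of 1.82, against 14 of 16 and 2.18 in Col-0. PCNA1, the clamp of DNA polymerase, had 9.66, 12.8 and 10.4 CPM in rootstock against 1.32, 1.23 and 0.837 in intact tissue (log2 change 3.25 ± 0.30, adjusted p 3.3e-10). MCM6, whose promoter is printed above, had 3.2, 6.32 and 3.29 CPM against 0.183, 0.788 and 0.502 (log2 change 3.16 ± 0.40, adjusted p 1.6e-07). MCM2 and MCM4 rose by 2.52 ± 0.34 and 1.76 ± 0.27. RNR1, a subunit of the enzyme that makes DNA precursors, had 24.0, 22.3 and 26.8 CPM against 9.28, 9.60 and 9.21 (log2 change 1.38 ± 0.18).

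Of the mitosis list, 22 of 24 rose and none fell (median 2.78), against all 24 in Col-0 (median 3.07). CYCB2;2 had 5.86, 5.87 and 8.25 CPM in rootstock against 0.257, 0.0984 and 0.279 in intact tissue (log2 change 4.93 ± 0.42, adjusted p 7.9e-11). CYCB1;4 had 16.9, 19.1 and 27.1 CPM against 2.02, 3.1 and 1.56 (log2 change 3.24 ± 0.29), and CYCB1;3 and CYCB1;2 rose by 4.07 ± 0.42 and 2.71 ± 0.31. CDKB2;1, a kinase that partners B-type cyclins, had 27.1, 32.8 and 30.3 CPM against 3.3, 5.27 and 3.18 (log2 change 2.94 ± 0.30). CYCB1;1 and AUR2 did not pass, at 0.95 ± 0.40 (adjusted p 0.059) and 0.77 ± 0.40 (adjusted p 0.13). Of the D-type cyclins, which start the cycle, 1 of 9 rose and 2 fell in the mutant, against 4 and 0 in Col-0, with no response difference past the threshold. In the mutant CYCD3;1 had 16.8, 20.8 and 20.7 CPM against 8.99, 10.2 and 7.87 (log2 change 1.11 ± 0.19, adjusted p 1.7e-05). CYCD4;2 and CYCD6;1 fell to 0.0623 and 0.0805 CPM, or 4 and 5 counts over the rootstock group, against 0.686 and 0.847 CPM in intact tissue. Without intact replicate 2 or with the replicate block, 2 D-type cyclins rose. Their median, 0.01, took values on either side of 0 under the alternatives, the lowest being -0.14 with upper-quartile scaling and the highest 0.13 without rootstock replicate 1.

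**Figure D4:**
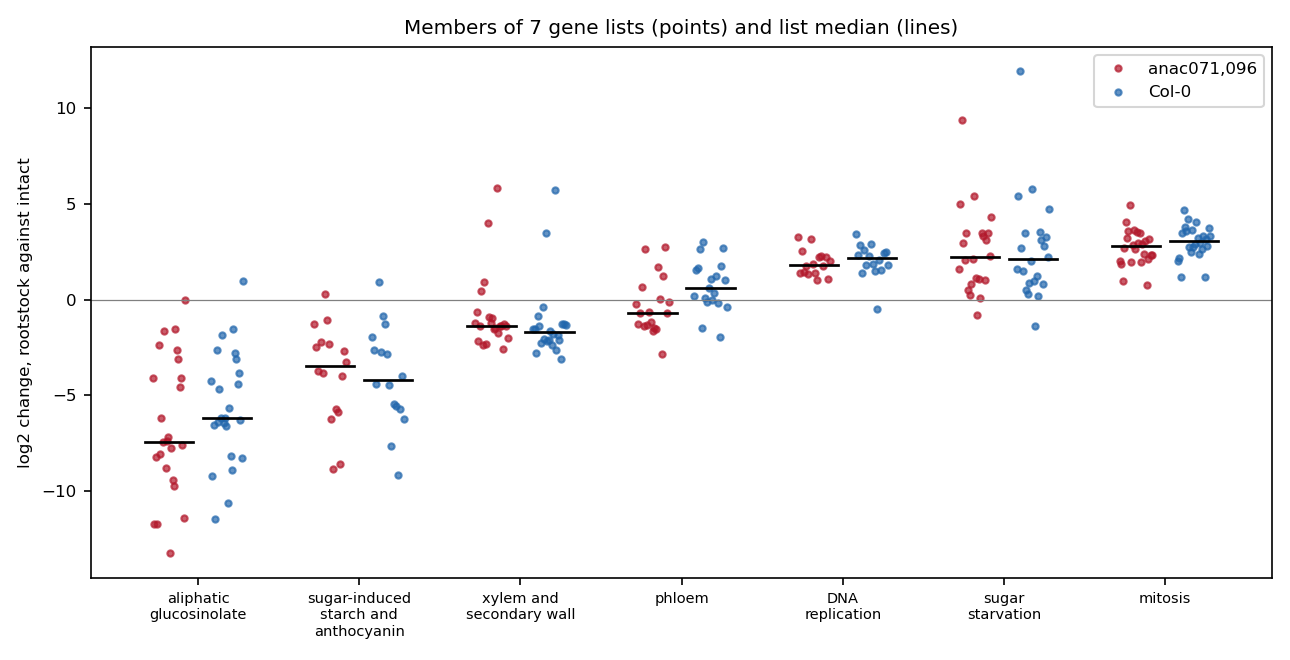
Log2 change of rootstock against intact hypocotyl (vertical) for the tested members of 7 gene lists in anac071,096 (red, left of each pair) and Col-0 (blue, right), with the list median as a line; fitted values of genes with a group at 0 counts depend on the prior count. The medians of the phloem list lie on different sides of 0, at -0.69 in anac071,096 and 0.61 in Col-0, and those of the other 6 lists on the same side; the phloem median in anac071,096 was -0.17 without intact replicate 2 and -1.07 without intact replicate 3.

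Among the jasmonate genes, 10 of 28 rose and 8 fell, and the number that fell was 5 without rootstock replicate 2 and 4 without intact replicate 2. Of the biosynthesis enzymes, the paralogs AOC3 and AOC4 went opposite ways. AOC3 had 8.15, 10.8 and 10.8 CPM in rootstock against 0.330, 0.492 and 0.112 in intact tissue (log2 change 4.94 ± 0.45), and AOC4 had 6.04, 7.07 and 6.20 CPM against 29.8, 50.1 and 37.8 (log2 change -2.61 ± 0.23). OPR3, a later enzyme, fell (log2 change -1.92 ± 0.20, adjusted p 3e-09).

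Of the ethylene genes, 5 of 23 rose and 5 fell, near the shares of 21.7% and 16.4% over all loci. ACS2 and ACS7, which make the ethylene precursor, rose: ACS2 had 16.1, 16.7 and 20.4 CPM against 0, 0.246 and 0.223 in intact tissue, and ACS7 had 24.1, 17.6 and 20.0 CPM against 2 counts in intact tissue (CPM ratio 677, 95% counting interval 187 to 5594). The receptor gene ERS2 fell (log2 change -1.50 ± 0.20, adjusted p 6e-07). The median of the list, 0.11, turned to -0.04 under upper-quartile scaling and was 0.04, 0.03 and 0.02 without rootstock replicate 1, intact replicate 2 and intact replicate 3.

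Auxin genes rose for 6 of 21 and fell for 8. The number that fell was 11 under RLE or upper-quartile scaling, with DESeq2 and with the replicate block. Transporters were among the lower ones: ABCB19 had 68.6, 65.6 and 109 CPM in rootstock against 575, 423 and 435 in intact tissue (log2 change -2.56 ± 0.19, adjusted p 4.9e-12). PIN7 had 139, 149 and 143 CPM against 403, 364 and 369 (log2 change -1.40 ± 0.13), and the importer LAX2 had 0.915, 1.76 and 1.81 CPM against 23.8, 43.3 and 35.5 (log2 change -4.52 ± 0.44). None of the 6 tested type-A response regulators of cytokinin passed, and 1 fell without rootstock replicate 3. ARR4, the one named by rule, had 16.3, 15.2 and 57.1 CPM in rootstock against 42.3, 35.2 and 50.2 in intact tissue, with rootstock replicate 3 above the other rootstocks and above all intact libraries (adjusted p 0.53).

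Genes induced by sugar starvation rose for 18 of 22 tested, with none falling (median 2.22), against 18 and 0 in Col-0 (median 2.14). IVD, an enzyme of leucine breakdown, had 747, 611 and 363 CPM in rootstock against 63.2, 42.4 and 46.2 in intact tissue (log2 change 3.5 ± 0.29, adjusted p 3.1e-11). EXO, a secreted protein of the exordium family, had 108, 148 and 119 CPM against 4.37, 5.86 and 9.04 (log2 change 4.30 ± 0.32), and DIN4, of branched-chain keto acid breakdown, 154, 159 and 82.0 against 19.9, 14 and 17.3 (log2 change 2.95 ± 0.29). The summed level of the list ran from 7599 to 16272 CPM in rootstocks and from 1463 to 2800.2 CPM in intact libraries.

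Genes that sugar induces, of starch and anthocyanin, fell for 14 of 16 tested, with none rising (median -3.48), as for 14 of 16 in Col-0. The count was 7 without intact replicate 2. GBSS1, the starch synthase of amylose, had 9.06, 19.9 and 23.8 CPM in rootstock against 94.7, 417 and 191 in intact tissue (log2 change -3.73 ± 0.52, adjusted p 9e-07). TT19, which brings anthocyanin to the vacuole, had 1 count in rootstock against 2.94, 12.4 and 8.98 CPM in intact tissue, an intact over rootstock CPM ratio of 472 (95% counting interval 84.2 to 18661). APL4, a subunit of the enzyme that feeds starch synthesis, fell with a log2 change of -2.48 ± 0.54. Intact libraries varied widely for this list, with summed levels of 137 to 555 CPM, all above the 30.2 to 51.2 CPM of the rootstocks.

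Photosynthesis genes fell for 15 of 33 and rose for none (median -0.47), and the number that fell was 29 under upper-quartile scaling. LHCB6, an antenna protein of photosystem II, had 1926, 2136 and 2706 CPM in rootstock against 3680.2, 4544 and 5052 in intact tissue (log2 change -0.97 ± 0.18, adjusted p 5.9e-05). PSAH2, of photosystem I, and FBA1, a Calvin cycle aldolase, fell with log2 changes of -0.94 ± 0.17 and -1.68 ± 0.32. Single members of the antenna families may share reads with paralogs. Of the hypoxia genes, 1 of 12 rose and 2 fell, with 2 rising without rootstock replicate 3 or intact replicate 1. The share that fell was near the 16.4% over all loci. With the replicate block 4 rose and 3 fell, and with DESeq2 2 rose and 3 fell. ADH1, the alcohol dehydrogenase of oxygen shortage, rose by 1.76 ± 0.41 (adjusted p 0.00085), while PGB1, a phytoglobin, had 0.183, 0.552 and 2.24 CPM against 14.9, 10.8 and 16.1 and HRA1, a transcription factor that dampens the hypoxia response, fell (log2 change -2.34 ± 0.67).

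The list with the lowest median held genes of aliphatic glucosinolates, the methionine-derived mustard-oil precursors of the cabbage family. Of 24 tested, 23 fell and none rose, with a median log2 change of -7.41, or -7.29 with genes at 0 counts set to their bound, and 23 also fell in Col-0 (median -6.18). CYP79F1, the enzyme that commits chain-elongated methionine to the pathway, had 1 count in the 3 rootstocks against 149, 289 and 179 CPM in intact tissue, an intact over rootstock CPM ratio of 12589.8 (95% counting interval 2259 to 497308). MYB29, a regulator of the pathway, had 0 counts in rootstock against 11.4, 25.4 and 15.3 CPM, at least 363-fold lower. Its relative MYB28 was still measurable, at 9.06, 8.78 and 11.7 CPM against 152, 186 and 165 (log2 change -4.09 ± 0.26, adjusted p 2.6e-13).

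Enzymes along the pathway fell with them. BCAT4, the first step of chain elongation, had 2 counts in rootstock against 109, 154 and 109 CPM in intact tissue. CYP83A1, the step after CYP79F1, had 0.0915, 0.502 and 3.34 CPM against 764, 1137 and 785 (log2 change -9.41 ± 0.97), and GSTU20, a glutathione transferase placed in the pathway, had 0.0458, 0.702 and 1.72 CPM against 427, 871 and 764 (log2 change -9.71 ± 0.60). FMO-GSOX3, which oxidises the side chain, had 1 count against 26.4, 85.3 and 61.6 CPM. The other genes of the 10 lowest by rule were AK3, an aspartate kinase, IGMT5, an indole glucosinolate methyltransferase, scpl10, a serine carboxypeptidase-like protein, and GER3, a germin-like protein. They had 0.0326, 0.0305, 0.0159 and 0.0995 CPM in rootstock on average, against 56.5, 23.3, 13.1 and 56.7 CPM in intact tissue. Of the indole branch, 5 of 12 tested fell and 3 rose, the share that rose being near the 21.7% over all loci. CYP79B2, CYP79B3 and UGT74B1 fell with log2 changes of -3.63 ± 0.19, -2.73 ± 0.21 and -2.76 ± 0.24. CYP79B2 had 17.8, 17.7 and 19.7 CPM in rootstock against 203, 284 and 195 in intact tissue.

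Genes of salicylate, WRKY factors and defence rose for 9 of 15 and fell for 2, against 7 and 2 in Col-0; without rootstock replicate 2 or intact replicate 3, 1 fell. WRKY6 had 128, 83.0 and 95.1 CPM in rootstock against 4.70, 4.18 and 2.46 in intact tissue (log2 change 4.74 ± 0.29, adjusted p 1.2e-13). WRKY18 had 107, 100.4 and 80.8 CPM against 21.8, 10.4 and 13.9 (log2 change 2.64 ± 0.21), and WRKY53 12.3, 7.42 and 10.3 CPM against 0.183, 0 and 0.167 (log2 change 6.31 ± 0.60).

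**Figure D5:**
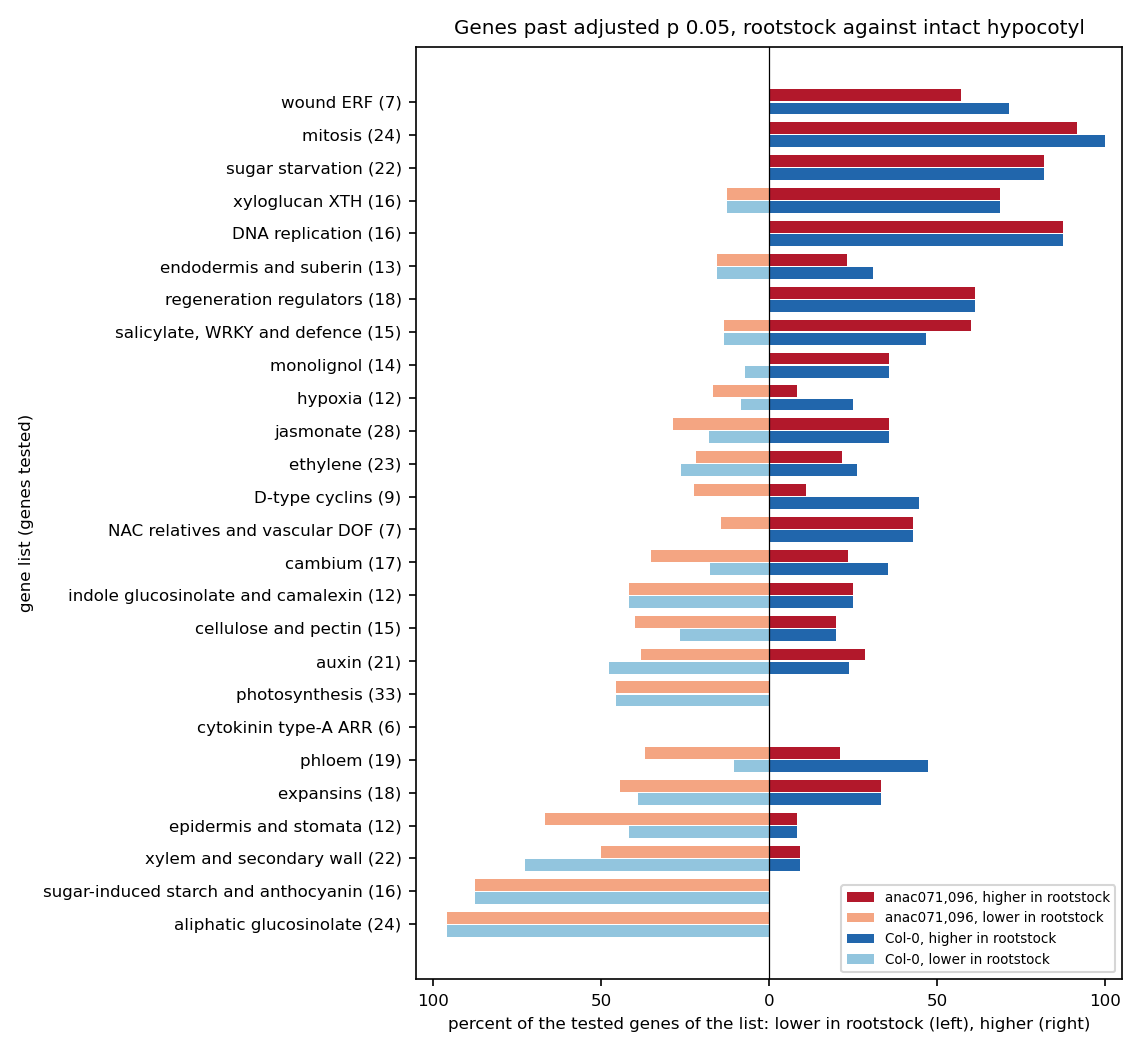
Percent of the tested genes of each list (number tested in brackets) that passed an adjusted p of 0.05, lower in rootstock to the left and higher to the right, for anac071,096 (upper bar) and Col-0 (lower bar); lists run by their median change in anac071,096, and no type-A ARR gene passed. In the phloem list 4 of 19 genes rose and 7 fell in anac071,096, against 9 and 2 in Col-0.

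Markers of other cell types and positions were compared as well. Epidermis and stomata genes fell for 8 of 12 and rose for 1, against 5 and 1 in Col-0. PDF1, expressed in the outermost cell layer, had 0.0915, 0 and 0.0953 CPM in rootstock against 11.7, 18.1 and 28.4 in intact tissue, and the epidermal regulators GL2 and ATML1 fell with log2 changes of -3.68 ± 0.46 and -1.21 ± 0.16. The summed level of this list was 1029 to 1635 CPM in rootstocks and 1685 to 2515 CPM in intact libraries. Of the shoot meristem markers, STM had 0, 0.301 and 0.0477 CPM in rootstock against 3.78, 7.29 and 6.25 in intact tissue (log2 change -5.62 ± 0.78, adjusted p 8.6e-07), while WUS and CLV3 were at 0 counts in all 6 libraries.

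Endodermis and suberin genes rose for 3 of 13 tested and fell for 2, near the shares of 21.7% and 16.4% over all loci. Of the list's 21 genes, 8 were not tested. Without intact replicate 1, 6 rose, and 1 fell without it or without rootstock replicate 2 or 3. FAR1, a fatty acyl reductase of suberin, had 31.1, 43.5 and 30.7 CPM in rootstock against 2 counts in intact tissue (CPM ratio 1143, 95% counting interval 316 to 9445). MYB36, a regulator of the endodermal barrier, had 42.9, 26.3 and 11.6 CPM against 8.44, 5.37 and 2.96 (log2 change 2.25 ± 0.64), and KCS2, of fatty acid elongation, fell (log2 change -4.61 ± 1.00). The 8 root hair and root tip markers summed to at most 0.1 CPM in a rootstock library and to 0 in every intact library, and none was tested. The part of these markers, of the organelle share and of the sampled position in the changes above was not tested.

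Rootstock was last set against scion, the other side of the junction, in a test that shares the rootstock libraries with the comparison above and leaves out the intact ones. The test did not pair libraries by number. It called 8943 loci (45.9%), 4404 higher in rootstock (22.6%) and 4539 lower (23.3%), with a median log2 difference of -0.10. Under upper-quartile scaling the higher share of the calls was 39.9%, against 49.2%. Photosynthesis genes were higher in rootstock for all 33 tested (median 1.71), and starvation genes for 20 of 22, with 1 lower (median 3.11). DNA replication genes were lower for all 16 tested (median -1.40), whereas no mitosis gene passed in either direction. Starch and anthocyanin genes were lower for 13 of 16 and aliphatic glucosinolate genes for 22 of 24.

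Genes named for this contrast lay far apart between the 2 tissues. DIN2, a beta-glucosidase induced in the dark, had 484, 396 and 82.2 CPM in rootstock against 0.0818, 0 and 0.18 in scion. UPB1, a bHLH factor known from the root growth zone, had 43.2, 84.0 and 54.4 CPM against 0, 0.0359 and 0. GRP9 had 11.0, 25.0 and 21.7 CPM against 0 counts in scion. LDOX and DFR are enzymes of anthocyanin synthesis. LDOX had 0 counts in rootstock against 5.69, 21.0 and 16.5 CPM in scion, and DFR had 1 count in rootstock against 8.59, 38.1 and 22.6 CPM in scion. GPT2, a plastid glucose-phosphate carrier induced by sugar, had 0.0458, 0 and 0.0477 CPM against 17.1, 46.1 and 70.0. All of these passed (adjusted p 2.7e-09 for UPB1, 6.8e-09 for DIN2, 4.1e-08 for GRP9, 9.2e-06 for LDOX, 1.1e-05 for DFR and 1.8e-07 for GPT2), and no library of one tissue overlapped those of the other. ANAC071 was lower in rootstock than in scion (log2 difference -1.45 ± 0.35, adjusted p 0.0016), with 1.97, 1.45 and 3.00 CPM in rootstock against 4.79, 4.55 and 8.31 in scion. ANAC096 did not pass (6.09 ± 0.784 CPM in rootstock against 6.34 ± 0.908 in scion, SD, n = 3). HCA2 had 8.03 ± 0.933 CPM in rootstock and 7.40 ± 0.382 in scion (adjusted p 0.65).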

How the data were processed

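Hypocotyl pieces of Arabidopsis grafts and uncut seedlings were profiled by polyA RNA-seq. The authors deposited whole-number counts per locus for 36 libraries; per the submitters' processing notes they used fastp, HISAT2, HTSeq and DESeq2 with TAIR10. Not given in the sources used here were tool versions, the annotation release and the strand setting, so that loci which overlap, lie antisense or have near-identical paralogs may share or split reads. Libraries were prepared with 13 PCR cycles, per the labels' protocols, without molecular identifiers, so that intervals and floors cover counting error only.

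From these counts, edgeR 4.0.16 in R 4.3.3 was run on the 12 groups together (filterByExpr with a minimum count of 10, TMM factors, robust quasi-likelihood fit, Benjamini-Hochberg adjustment over the 19476 loci tested of 33341, threshold 0.05), and the code was tested on simulated data. The library totals of 19.5 to 30.5 M (mega) counts set the precision. The response difference is the rootstock change in anac071,096 minus that in Col-0. Where a group had 0 counts, a fold is a bound against a floor of 3 counts over the group. With 1 to 3 counts, a CPM ratio carries its 95% counting interval, and some such genes are given by their levels alone.

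Genes were named by rule: the targeted genes; the 10 highest and 10 lowest log2 changes among loci that passed, carried a symbol, reached a group mean of 10 CPM and had no overlap of libraries; in each of 29 lists, the 3 members of smallest adjusted p (where no member passed, that of highest mean); the 10 smallest adjusted p in each direction of the response difference, with a symbol and at least 10 CPM; the 3 highest and 3 lowest between rootstock and scion; and XTH19 and XTH20. Further list members were named for their role. Members and lists were chosen with earlier results of these data known. The lists hold 505 loci, of which 504 were in the table and 442 were tested; AOP2 is not analysed here.

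Same-numbered rootstock and scion libraries of the mutant deviated together over loci (correlations of 0.15, 0.29 and 0.14 for numbers 1, 2 and 3). Rootstock 1 with scion 3 gave 0.13, close to its same-numbered value. The main fit did not pair libraries in any comparison, and numbers served as pairs in the replicate block alone. Alternatives were RLE and upper-quartile scaling, DESeq2 1.42.0, no filter, a fit of only the groups compared, a replicate block and leaving out each library. Promoters came from the TAIR10.1 assembly of RefSeq, and a position upstream was counted from the annotated gene start.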

Additional observations from a re-analysis of the deposited data

Results flagged for a closer look

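What follows was singled out because the interaction test put the anac071,096 rootstock response apart from that of Col-0. The test called 39 loci with a lower response in the mutant and 1 with a higher one. Among the lower ones, the log2 difference of the responses was -2.41 for HCA2, -2.21 for TMO6, -1.75 for BAM3 and -1.43 for SMXL5. It was -3.83 for SUS6, -2.08 for NAT7, -2.45 for RTM2 and -1.46 for PG1. ENODL9 and SEOB differed by -2.24 and -1.90.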

How the results depend on the processing

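Rootstock against intact tissue gave 7425 calls, and 5543 to 8531 in the other fits, the lowest with only the groups compared and the highest with the replicate block; leaving out 1 library gave 6417 to 7071. Rootstock against scion gave 8943 calls, 10219 with the replicate block and 7458 to 8268 with 1 library left out. The response difference gave 40 calls and was the count that moved most: 103 with DESeq2 (7 higher and 96 lower) and 10 with only the groups compared (0 higher and 10 lower; 473 at an unadjusted p under 0.05). With 1 library left out it gave 18 to 54 calls, of which 0 to 2 were higher and 16 to 53 lower, and a group left with 2 libraries shares the pooled spread. The block gave 48 calls there, and under it ENODL9 (adjusted p 0.052), PG1 (0.056) and SEOB (0.095) no longer passed. Same-numbered rootstock and intact libraries did not all deviate together (correlations over loci of 0.41, 0.19 and -0.00096), and the main fit did not take numbers as pairs there either. For named genes 56 values lost their call under an alternative, and the cause was not tested. Another 1429 values kept their direction and stayed called or uncalled as in the main fit. ANAC096 changed sign where it had no call: the response difference, -0.72, ran from -1.06 without anac071,096 intact replicate 1 to 0.12 without intact replicate 2, and rootstock against scion ran from -0.17 without rootstock replicate 1 to 0.018 without rootstock replicate 3 and 0.038 without scion replicate 3. At this depth, changes of genes with few counts in every group could not be detected.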

Other observations

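Among the other loci with a lower rootstock response in anac071,096 than in Col-0, chosen here after their values were seen, PDLP7, of the proteins that sit at plasmodesmata, averaged 2.67 CPM in mutant rootstock and 9.05 CPM in mutant intact tissue, against 8.23 and 9.48 CPM in Col-0 rootstock and intact tissue. GATA20, a GATA transcription factor, averaged 1.11 CPM in mutant rootstock and 5.85 CPM in mutant intact tissue, against 4.79 and 5.49 CPM in Col-0 rootstock and intact tissue. For both, the mutant changed past the threshold and Col-0 did not, and the difference itself passed (log2 difference -1.55 for PDLP7 and -2.20 for GATA20). GATA20 kept that call in 7 of 18 alternative settings and PDLP7 in 17.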
